A study of Mus musculus with 2 samples.

Results

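Barcodes with little RNA were examined in 2 single-cell RNA-seq libraries of male mouse germ cells, 1 from E13.5 and 1 from E12.5 embryos. Low-RNA barcodes were those with fewer than 5000 unique molecular identifiers (UMIs, each standing for 1 captured transcript) and under 10% of UMIs from mitochondrially encoded (mt-) genes. There were 279 of 2992 barcodes at E13.5 (9.32%; 95% interval by Clopper-Pearson 8.31 to 10.4). At E12.5 they were 287 of 2847 (10.1%; 9.0 to 11.2), which makes 566 of 5839 in both. Because they were chosen by measured depth and mitochondrial share, those values describe the choice, and they support nothing by themselves. The comparison group was every barcode of the same library with 5000 UMIs or more, 2607 at E13.5 and 2517 at E12.5, whatever its mitochondrial share. Both libraries came from embryos of the outbred CD1 strain, with cells sorted by fluorescence for a green fluorescent protein driven by Oct4 and counted with 10x version 2 chemistry, which reads the 3' ends of transcripts. No treatment or mutation is named for either group. The sort selects Oct4-expressing cells, so somatic and red cells reach the libraries only past that gate. The number of embryos behind each library is not stated in the labels.

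With 1 library per stage there is no replicate of any value, and no test of a difference between sets or stages was possible. Intervals below are exact 95% intervals that cover counting error only. A gene was called higher or lower when its summed level, in counts per 1e6 UMIs of its set (CPM), differed at least 2-fold between low-RNA and 5000+ barcodes, with an interval excluding 1, at least 3 UMIs in each set and a mean of both sets of 50 CPM or more. The comparison addresses what the shallow barcodes of a sorted germ cell library contain, whether red cell, somatic gonad or germ cell transcripts.

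As background, red cells of the mouse fetus come in waves. Primitive red cells from the yolk sac carry embryonic globins (Hbb-y, Hbb-bh1 and Hba-x) beside adult alpha globin, and definitive red cells from the fetal liver carry adult globins (Hbb-bs, Hbb-bt, Hba-a1 and Hba-a2). Male germ cells at these stages have just arrived in the gonad, still express pluripotency factors such as Pou5f1, and are enclosed in cords by Sertoli cells, with Leydig, other interstitial and endothelial cells outside the cords. In droplet libraries, transcripts free in the cell suspension also enter every droplet, and weigh most in those with few UMIs.

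The transcripts of the low-RNA barcodes were mostly those of germ cells. The name "somatic" under which these barcodes were set apart therefore describes a small part of them. Of 278459 UMIs in E13.5 low-RNA barcodes, 2700 came from 34 germ cell genes, 64 from 78 somatic gonad genes and 3103 from haemoglobin genes, and 3087 of the haemoglobin UMIs sat in 1 barcode. Of 304693 UMIs in E12.5 low-RNA barcodes, 2692 were germ, 76 somatic gonad and 0 haemoglobin. At least 1 germ UMI was present in 264 of 279 low-RNA barcodes at E13.5 and in 275 of 287 at E12.5. The thymosin gene Tmsb4x had UMIs in 5 low-RNA barcodes at E13.5, which held 2 germ UMIs together, and in 7 at E12.5. Of those 7, 4 held 1 germ UMI or none, and the others held 14, 7 and 9. Somatic gonad UMIs were in all but 1 of the 5 at E13.5 and in these 4 at E12.5, and in none of the others.

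The globin promoters are shown because haemoglobin genes had the highest ratio of the summed lists at E13.5, through 1 barcode, and because embryonic and adult globin genes were counted together in 1 barcode. Sequences are from RefSeq on GRCm38.p6, 250 bases before to 50 after the start of each gene, 5' to 3' on the gene's own strand. They lie at chr7:103853158-103853457 (minus strand) for the embryonic beta-like Hbb-y, chr7:103827879-103828178 (minus strand) for the adult beta Hbb-bs, and chr11:32283422-32283721 (plus strand) for the adult alpha Hba-a1. Capitals mark 3 short motifs of erythroid promoters on either strand, which do not overlap each other here. They are the CACCC box, the CCAAT box and the GATA factor motif GATAA, each sought also as its reverse complement, which is how GATAA stands in Hbb-y.
Hbb-y: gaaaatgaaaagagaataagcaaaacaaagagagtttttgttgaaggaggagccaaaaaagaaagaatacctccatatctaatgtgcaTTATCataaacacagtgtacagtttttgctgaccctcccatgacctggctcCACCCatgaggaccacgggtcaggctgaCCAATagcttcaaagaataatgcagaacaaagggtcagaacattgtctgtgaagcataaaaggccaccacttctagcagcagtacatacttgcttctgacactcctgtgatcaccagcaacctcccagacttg
Hbb-bs: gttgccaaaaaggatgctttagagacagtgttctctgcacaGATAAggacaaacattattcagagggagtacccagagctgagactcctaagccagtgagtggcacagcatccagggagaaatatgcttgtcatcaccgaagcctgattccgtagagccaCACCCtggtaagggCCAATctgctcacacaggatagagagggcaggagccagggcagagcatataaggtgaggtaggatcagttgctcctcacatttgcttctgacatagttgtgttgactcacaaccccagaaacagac
Hba-a1: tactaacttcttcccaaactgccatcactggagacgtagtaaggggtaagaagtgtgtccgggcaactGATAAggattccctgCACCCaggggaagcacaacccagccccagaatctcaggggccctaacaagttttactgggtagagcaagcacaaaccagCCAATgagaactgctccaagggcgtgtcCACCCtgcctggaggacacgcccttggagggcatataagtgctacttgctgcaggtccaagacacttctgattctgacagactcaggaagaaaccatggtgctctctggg
Each window holds 1 CCAAT and 1 GATAA, and CACCC stands 1 time in Hbb-y and Hbb-bs and 2 times in Hba-a1. These letters are common: of 32851 promoter windows of the same length, 57.5% hold CACCC, 37.4% CCAAT and 25.4% GATAA on either strand. A match describes the letters and is no evidence of a bound factor.

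Low-RNA barcodes had a median of 533 UMIs (234 to 4931) and 360 genes (201 to 1846) at E13.5, and 538 UMIs (230 to 4801) and 386 genes (201 to 2042) at E12.5. Medians in the 5000+ barcodes were 21685 UMIs at E13.5 and 23445 at E12.5. All low-RNA barcodes together held 0.465% of the UMIs of the E13.5 library and 0.505% of those of the E12.5 library. Their mitochondrial share, which the selection used, had a median of 2.05% at E13.5, against 4.70% in 5000+ barcodes, and 2.08% at E12.5, against 3.86%. The limit of 5000 UMIs fell in a thin stretch, with 11 low-RNA barcodes between 4000 and 5000 UMIs in each library. The nearest below it had 4931, 4740 and 4728 UMIs at E13.5 and 4801, 4764 and 4733 at E12.5, and the nearest above had 5153, 5153 and 5168 at E13.5 and 5053, 5119 and 5144 at E12.5. Low-RNA barcodes under 500 UMIs numbered 136 at E13.5 and 140 at E12.5.

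**Figure D1:**
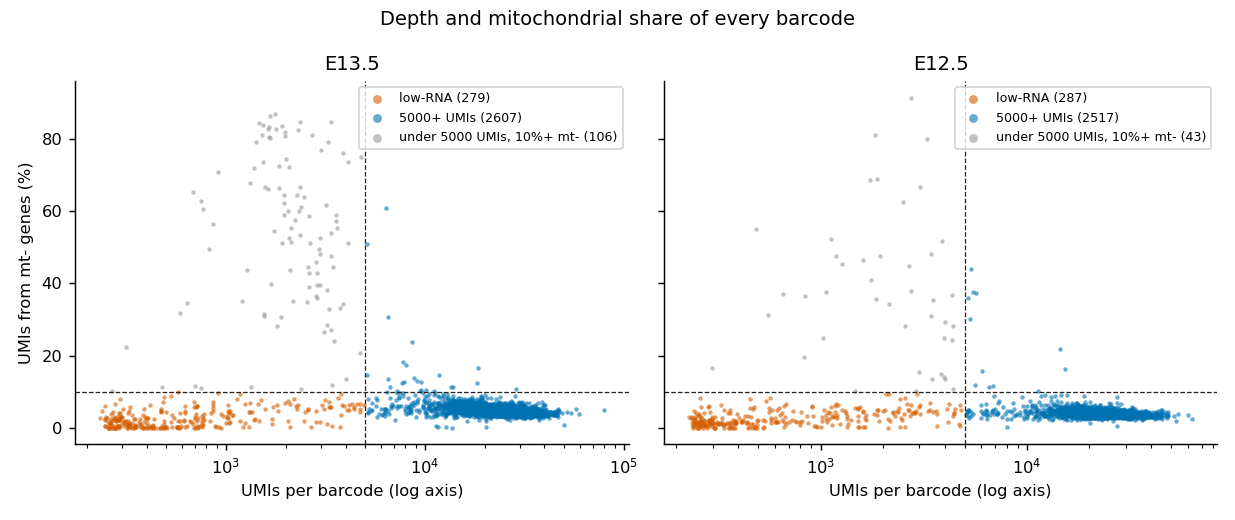
Share of mitochondrially encoded UMIs in percent (vertical axis) against total UMIs on a log axis (horizontal) for every barcode, E13.5 left and E12.5 right, with low-RNA barcodes, 5000+ barcodes and the remaining barcodes under 5000 UMIs in different colours. Low-RNA barcodes cluster near 500 UMIs, with medians of 533 at E13.5 and 538 at E12.5, and few lie just under the limit of 5000.

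Red cell transcripts were far higher in low-RNA than in 5000+ barcodes at E13.5, and this came from a single barcode. The summed haemoglobin level was 11144 CPM in low-RNA barcodes (10755 to 11543) and 1046 CPM in 5000+ barcodes, a ratio of 10.7 (10.3 to 11.0). Of the 3103 haemoglobin UMIs, 3087 (99.5%) belonged to 1 barcode with 3756 UMIs and 302 genes, 82.2% of whose UMIs were haemoglobin. All red cell genes together had a ratio of 10.1 (9.78 to 10.5) with that barcode, and 0.0824 (0.0533 to 0.122) once it was left out while the haemoglobin-rich 5000+ barcodes stayed in. With haemoglobin-rich barcodes left out of both sets, the ratio was 1.21 (0.785 to 1.80).

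In that barcode the embryonic beta-like globin Hbb-y (chr7:103851749-103853216, minus strand, GRCm38) led with 1898 UMIs, 61.5% of all globin UMIs. The adult alpha globin Hba-a1 followed with 658 UMIs (21.3%), the adult beta globin Hbb-bs with 206 (6.67%), Hba-a2 with 159, the embryonic alpha-like Hba-x with 140, Hbb-bh1 with 16 and Hbb-bt with 10. Embryonic globins thus made up 66.5% of its globin UMIs and adult globins 33.5%. Outside the globins it held 151 UMIs of the nuclear noncoding RNA Malat1, 58 of Ftl1 and 44 of Fth1, the light and heavy chains of the iron store ferritin, and 11 of Mt1 and 9 of Mt2, both metallothioneins; of these only the globins were picked by rule, the others after their values were seen. Alas2, the first enzyme of haem synthesis in red cells, had 0 UMIs there, mt- genes 3 and germ genes 3.

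Among the 5000+ barcodes of E13.5, 5 of 2607 had more than 10% haemoglobin UMIs (0.192%, 0.0623 to 0.447), against 1 of 279 low-RNA barcodes (0.358%, 0.00907 to 1.98); the intervals overlap widely. These 5 fell into unlike kinds. Barcodes of 11336 and 11640 UMIs were 87.9% and 90.6% haemoglobin, with embryonic globins at 0.411% and 0% of globin UMIs. Barcodes of 13775 and 20348 UMIs were 87.6% and 78.5% haemoglobin, with embryonic shares of 68.7% and 75.8%, near the 66.5% of the low-RNA barcode. The fifth, with 40322 UMIs, was 30.1% haemoglobin with an embryonic share of 71.5%, and also held 273 germ UMIs (0.677% of its UMIs).

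**Figure D2:**
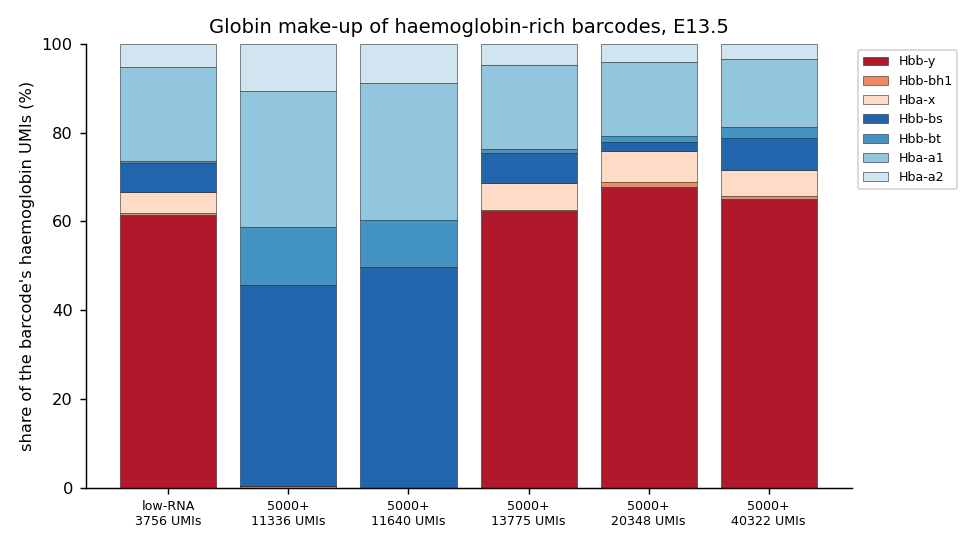
Share of each globin gene in the globin UMIs (stacked bars, percent) for the haemoglobin-rich barcodes of E13.5, the low-RNA barcode left and the 5 barcodes of 5000+ UMIs to its right. The low-RNA barcode is mostly Hbb-y (61.5%), and barcodes with 0.411% and 0% embryonic globin hold adult globins almost alone.

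Per gene, Hbb-y had 6852 CPM in low-RNA barcodes and 453 CPM in 5000+ barcodes of E13.5, a ratio of 15.1 (14.4 to 15.8). Hba-x and Hba-a1 differed less, with ratios of 11.8 and 10.5, and Hba-a2 had 9.28. Hbb-bs had 743 CPM and 204 CPM, a ratio of 3.64 (3.15 to 4.17), and Hbb-bt, the other adult beta globin, a ratio of 0.689 (0.330 to 1.27), so the beta-like genes ranged from embryonic, highest, to adult, lowest. The near-identical copies Hba-a1 and Hba-a2, and Hbb-bs and Hbb-bt, can share reads, so their split is uncertain. The other 278 low-RNA barcodes held 16 haemoglobin UMIs, 1 each in 16 barcodes, or 58.2 CPM, against 23.1 CPM in 5000+ barcodes without the haemoglobin-rich ones (2.52, 1.44 to 4.11), where 1051 barcodes held at least 1. Free RNA can give such single UMIs, and its part was not tested.

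At E12.5 no haemoglobin UMI was seen in low-RNA barcodes, against 17 in 5000+ barcodes (0.283 CPM). With 0 of 287 barcodes rich in haemoglobin, a share of up to 1.05% is allowed when 3 barcodes are taken as the limit of a count of 0 (exact upper bound 1.28%), so the presence of such a barcode at E13.5 alone is not a difference detectable at this number of barcodes. Hba-a2, Hba-x, Hbb-bh1 and Hbb-bt had no row in the E12.5 table. The 23 other red cell genes, among them the haem enzymes and membrane proteins, gave 13 UMIs in low-RNA barcodes at E13.5 (46.7 CPM, against 58.0 CPM, ratio 0.805, 0.428 to 1.38) and 22 at E12.5 (72.2 CPM, against 58.3 CPM, ratio 1.24, 0.775 to 1.88). Their leading members were Bpgm, which makes 2,3-bisphosphoglycerate, and Fech, which inserts iron into haem, with 5 and 4 UMIs at E13.5 and 8 and 7 at E12.5.

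Somatic gonad transcripts were scarce in low-RNA barcodes and in the rest of each library. The 78 genes summed to 230 CPM (177 to 293) in low-RNA barcodes and 213 CPM in 5000+ barcodes of E13.5, a ratio of 1.08 (0.831 to 1.38). At E12.5 they summed to 249 CPM (197 to 312) in low-RNA barcodes and 212 CPM in 5000+ barcodes, a ratio of 1.18 (0.928 to 1.48). The ratio at E13.5 depended on the depths set against each other. It was 1.53 (1.11 to 2.04) for low-RNA barcodes under 2000 UMIs, and 0.576 (0.443 to 0.737) against 5000+ barcodes under 20000 UMIs. The 64 UMIs of E13.5 lay in 33 low-RNA barcodes (11.8%), and the 76 of E12.5 in 45 (15.7%). Pecam1, which early germ cells also express, gave 31 of the 76 at E12.5, and 77.4 of the 212 CPM in 5000+ barcodes. The pooled level at E12.5 is thus not somatic alone. Of the 78 genes, 63 at E13.5 and 60 at E12.5 had a row in the table, and 5 and 6 of them stood at 10 CPM or more in the 5000+ barcodes.

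Sertoli genes had 23 UMIs in low-RNA barcodes at E13.5, 82.6 CPM against 97.5 CPM (ratio 0.847, 0.536 to 1.27), and 12 at E12.5, 39.4 CPM against 24.6 CPM (1.60, 0.824 to 2.80). Their leading gene was Aard, with 10 UMIs in 7 barcodes at E13.5 and 3 UMIs at E12.5. Amh, the anti-Mullerian hormone and a defining Sertoli product, had 3 UMIs at E13.5 and 0 at E12.5, and Sox9, the factor that specifies the Sertoli fate, had 0 and 2. Fetal Leydig genes had no UMI in low-RNA barcodes of either stage. Interstitial genes had 16 UMIs at E13.5, 8 of them in 1 barcode (57.5 CPM, against 41.0 CPM, ratio 1.40, 0.799 to 2.28). At E12.5 they had 3 (9.85 CPM, against 25.2 CPM, ratio 0.391, 0.0804 to 1.14). Among them Ptch1, the receptor for hedgehog signals from Sertoli cells, had 7 UMIs in 6 barcodes at E13.5 and 1 UMI at E12.5.

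Endothelial genes were the most frequent somatic list at E12.5, with 55 UMIs and 181 CPM in low-RNA barcodes, against 134 CPM in 5000+ barcodes (1.35, 1.02 to 1.76). Of these, 17 lay in 1 barcode, without which the list had 126 CPM and a ratio of 0.940 (0.664 to 1.29). Pecam1, an adhesion molecule of endothelium that early germ cells also express, gave 31 of the 55 UMIs in 22 barcodes, 101.7 CPM against 77.4 CPM (1.32, 0.893 to 1.87). At E13.5 the list had 14 UMIs, 50.3 CPM against 53.4 CPM (0.941), with 3 of Pecam1 and 5 of Egfl7, a protein that endothelial cells secrete. Mural genes had 6 UMIs at E13.5 and 2 at E12.5, and surface epithelium genes 5 and 4. Pregranulosa genes, of the supporting cells of the ovary, had 0 and 2. Of lists outside the gonad, immune genes had 2 and 4 UMIs, platelet genes 0 and 1, and neural genes 3 and 7. Mesonephric genes had 32 UMIs at E13.5 and 28 at E12.5, of which 26 and 28 were Lhx1. Their level was 115 CPM against 97.8 CPM in 5000+ barcodes at E13.5, and 91.9 CPM against 84.4 CPM at E12.5.

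**Figure D3:**
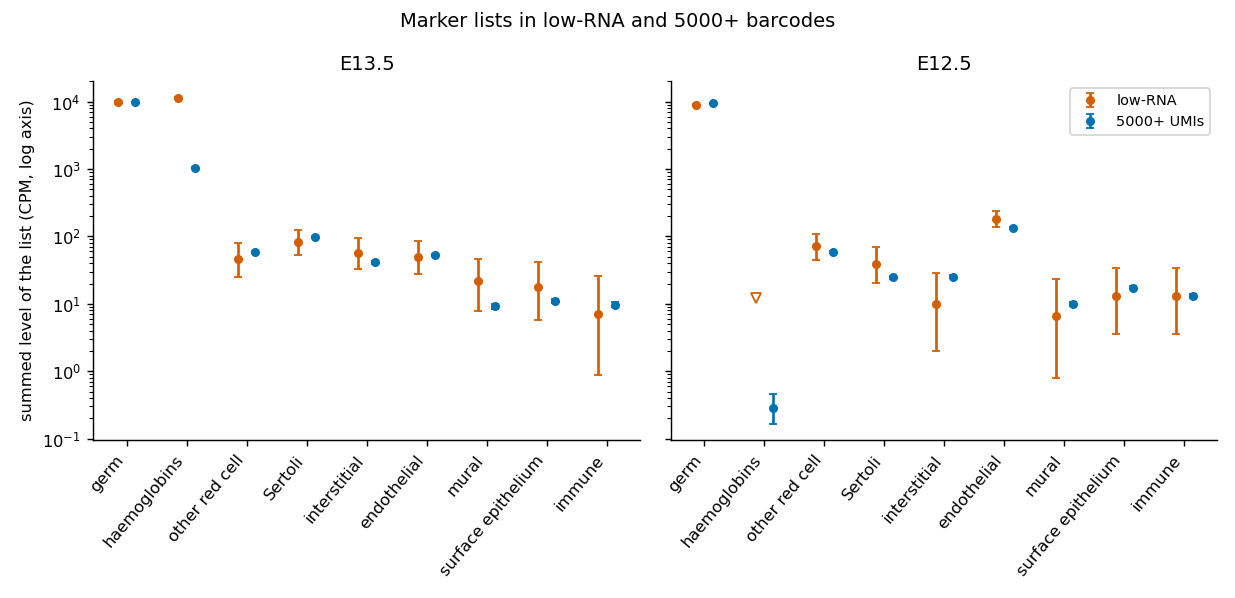
Summed level in CPM on a log axis for each list of genes, E13.5 left and E12.5 right, low-RNA barcodes left of 5000+ barcodes, with 95% Poisson bars. An open triangle is the upper limit that 0 haemoglobin UMIs allow at E12.5. Germ genes stand near 10000 CPM in both sets (9696 and 9990 at E13.5). Somatic gonad lists are drawn singly and not as their sum, and the highest of those drawn at E13.5 is Sertoli (82.6 and 97.5 CPM).

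Genes proposed earlier as marks of low-RNA barcodes were Hbb-bs, Hba-a1, Tmsb4x, Ptn, Itm2a, Meg3 and Igf2, and their values describe that choice. Tmsb4x, which encodes the actin monomer-binding peptide thymosin beta 4 (chrX:167207093-167209315, minus strand), had 34 UMIs in 5 low-RNA barcodes at E13.5, 122 CPM against 6.86 CPM (ratio 17.8, 12.2 to 25.3). At E12.5 it had 73 UMIs in 7 barcodes, 240 CPM against 32.0 CPM (7.49, 5.85 to 9.47), and 47 of the 73 lay in 1 barcode. Ptn, a secreted growth factor, Itm2a, a membrane protein, and Meg3, an imprinted noncoding RNA, had 1, 1 and 1 UMIs at E13.5 and 1, 0 and 1 at E12.5, too few to compare. Igf2, the imprinted insulin-like growth factor, had 2 UMIs at E13.5. At E12.5 it had 15 in 5 barcodes, 11 of them in 1, or 49.2 CPM against 2.98 CPM (16.5, 9.04 to 27.9), under the level at which genes were called.

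The Tmsb4x barcodes held few germ transcripts at E13.5. These 5 barcodes had 273 to 1220 UMIs, and their Tmsb4x UMIs were 6, 11, 8, 6 and 3 from the deepest to the shallowest. Together they held 3394 UMIs, of which 2 were germ UMIs (589 CPM) and 20 somatic gonad UMIs (5893 CPM), with germ UMIs in 1 of the 5. The barcode of 744 UMIs had 2 UMIs of Egfl7, 1 each of the endothelial genes Ramp2 and Ecscr, and 7 of Vim, an intermediate filament of mesenchymal and endothelial cells. The barcode of 692 UMIs had 4 of Tagln and 5 of Actc1, genes of the actin apparatus of smooth and cardiac muscle. The barcode of 465 UMIs had 2 each of Col1a1, Dcn and Lum, matrix genes of fibroblast-like cells, and 1 each of Wt1, Col3a1 and Dlk1. The barcode of 1220 UMIs had 1 each of Aard, Dlk1 and Itm2a, and that of 273 UMIs none of the somatic gonad genes. Vim, Actc1, Ramp2 and the matrix genes are named here after their values were seen.

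At E12.5 the barcode with 47 Tmsb4x UMIs had 2125 UMIs, no germ UMI, no mt- UMI and 17 somatic gonad UMIs, all of endothelial genes. They were 4 of Pecam1, 3 of Esam, 2 each of Egfl7, Ramp2 and Cldn5, and 1 each of Cdh5, Kdr, Flt1 and Ecscr, which include junction proteins and receptors for vascular growth factor. It also held 5 UMIs of Icam2, 6 of Gja4, 7 of Igfbp3, 11 of Igf2 and 10 of Cdkn1c, genes picked out after their values were seen. A barcode of 1610 UMIs had 11 of Tmsb4x and 1 each of Cldn5 and Eng, also with no germ UMI. A barcode of 490 UMIs had 11 of Tmsb4x, 4 of the lipid carrier gene Apoe and 1 germ UMI, and one of 955 UMIs had 1 of Tmsb4x and 1 each of Wt1, Kitl and Lhx9 with no germ UMI. The remaining 3, with 1341, 1012 and 907 UMIs, had 1 Tmsb4x UMI each beside 14, 7 and 9 germ UMIs.

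Tmsb4x was not particular to shallow barcodes: at least 1 UMI was found in 153 of 2607 barcodes with 5000+ UMIs at E13.5 (5.87%) and in 526 of 2517 at E12.5 (20.9%). Its level was highest of all depth ranges between 5000 and 10000 UMIs at E12.5 (1091 CPM, against at most 299 CPM under 5000), whereas at E13.5 it was highest under 1000 UMIs (306 CPM, against 184 CPM between 5000 and 10000). With barcodes holding Tmsb4x left out of both sets, the ratio of the somatic gonad list was 1.08 (0.787 to 1.46) at E13.5 and 0.894 (0.669 to 1.17) at E12.5. Left out of the low-RNA set alone, it was 0.751 (0.545 to 1.01) at E13.5 and 0.846 (0.633 to 1.11) at E12.5.

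Germ cell transcripts had nearly the same share of UMIs in low-RNA and 5000+ barcodes. The 34 germ genes summed to 9696 CPM (9334 to 10069) in low-RNA barcodes and 9990 CPM in 5000+ barcodes at E13.5, a ratio of 0.971 (0.934 to 1.01). At E12.5 they summed to 8835 CPM (8504 to 9175) and 9385 CPM, a ratio of 0.941 (0.906 to 0.978). Per barcode, the median germ share was 0.994% of UMIs in low-RNA barcodes, against 1.0% in 5000+ barcodes at E13.5, and 0.850%, against 0.931%, at E12.5. In the low-RNA barcode rich in haemoglobin, where germ transcripts should be absent, the germ share was 0.0799%, and in the 4 5000+ barcodes of over 78% haemoglobin it was 0.0218 to 0.0344%. Haemoglobin lowers every other share in these barcodes. Outside haemoglobin, germ UMIs were 3 of 669 in the low-RNA barcode. In the 5000+ barcodes they were 3 of 1369, 4 of 1089, 3 of 1707 and 7 of 4380. The median low-RNA barcode of E13.5 held 6 germ UMIs. The part of free RNA in these counts was not tested.

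Low-RNA barcodes with no germ UMI numbered 15 at E13.5 and 12 at E12.5. Most were shallow, and at 1000 UMIs or more they were 2 of 78 at E13.5 and 2 of 102 at E12.5. Summed, they held 24 somatic gonad UMIs of 8742 at E13.5 (2745 CPM) and 28 of 7632 at E12.5 (3669 CPM). A few barcodes carried these: 5 barcodes held any at each stage, and the highest 3 held 20 of the 24 at E13.5 and 25 of the 28 at E12.5. Among 5000+ barcodes, 3 at E13.5 and 0 at E12.5 lacked a germ UMI.

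**Figure D4:**
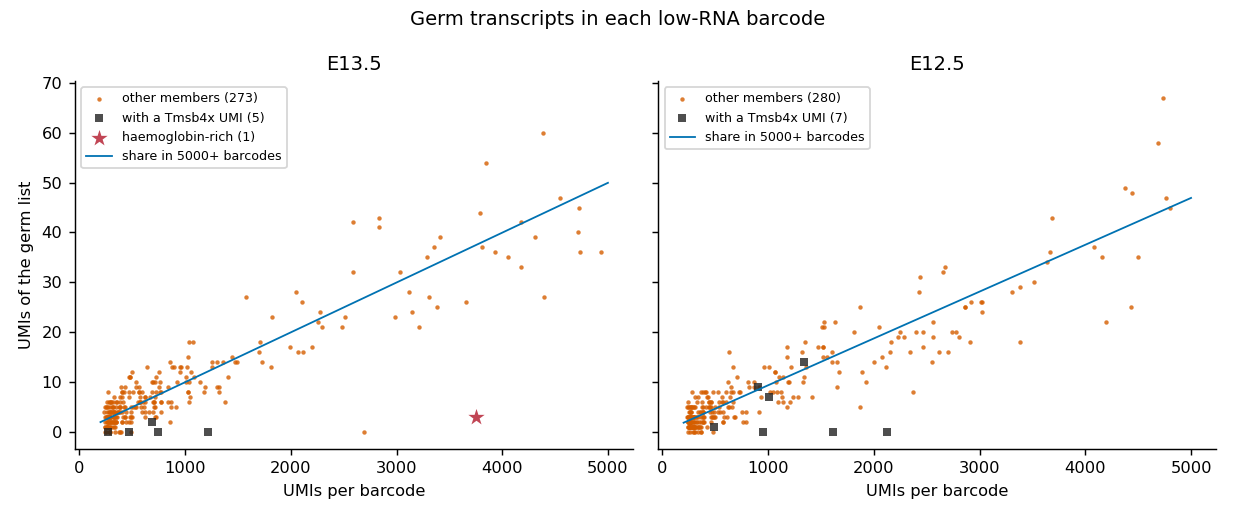
Germ UMIs against total UMIs for every low-RNA barcode, E13.5 left and E12.5 right, with squares for barcodes holding Tmsb4x and a star for the barcode rich in haemoglobin. The blue line is the germ share of the 5000+ barcodes; most points follow it, and the star (3 germ UMIs of 3756) and most squares lie under it.

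Among single germ genes, Dppa3, which encodes a maternal-effect protein, had 3160 CPM in low-RNA barcodes and 2986 CPM in 5000+ barcodes at E13.5 (1.06, 0.989 to 1.13). At E12.5 it had 1851 CPM and 1844 CPM (1.0, 0.923 to 1.09). The pluripotency gene Dppa5a had 1458 CPM and 1973 CPM at E13.5 (0.739, 0.669 to 0.815) and 2327 CPM and 2809 CPM at E12.5 (0.828, 0.768 to 0.892), below 1 at both stages but within 2-fold. Gtsf1, a piRNA pathway factor, was the only one of the 21 germ genes tested at E13.5 to be called, with 68.2 CPM against 33.6 CPM (2.03, 1.22 to 3.18; 19 UMIs in 17 barcodes). At 33.6 CPM in 5000+ barcodes, Gtsf1 reached the mean of 50 CPM only through its low-RNA level. Over all genes tested at E13.5, 0.751% were called higher. Gtsf1 had 1 UMI in low-RNA barcodes at E12.5, where 0 of 19 germ genes tested were called and 0.669% of all genes tested were called higher. Over the germ genes tested, the median log2 ratio was 0.08 at E13.5 and -0.12 at E12.5, and over all genes tested -0.01 and 0.04.

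Genes outside the naming rule gave like values. Pou5f1, which encodes the Oct4 factor of the sort, had 636 CPM against 696 CPM at E13.5 (0.914, 0.784 to 1.06) and 512 CPM against 499 CPM at E12.5 (1.03, 0.871 to 1.20). Dazl, an RNA-binding protein required for germ cell commitment, had 1174 CPM against 1161 CPM at E13.5 and 840 CPM against 799 CPM at E12.5. The RNA helicase gene Ddx4 had 126 CPM against 146 CPM at E13.5, and 105 CPM against 84.5 CPM at E12.5. Low-RNA barcodes also followed the stage of their own library. The X-linked homeobox gene Rhox9 had 28.7 CPM at E13.5, against 437 CPM at E12.5, beside 50.4 CPM and 530 CPM in the 5000+ barcodes of these stages. The synaptonemal complex gene Sycp1 went the other way, with 269 CPM at E13.5, against 23.0 CPM at E12.5, beside 183 CPM and 26.2 CPM.

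A panel was made of 17 genes at least 3-fold higher in E13.5 and 23 at least 3-fold higher in E12.5 5000+ barcodes. The genes of the first kind gave 82.8% of panel UMIs in E13.5 low-RNA barcodes (80.5 to 84.9), against 80.3% in E13.5 5000+ barcodes. At E12.5 they gave 19.104% in low-RNA barcodes (17.0 to 21.4), against 17.0% in 5000+ barcodes. Across 2447 genes at 50 CPM or more, which are not independent replicates, E13.5 low-RNA barcodes had a Spearman rho of 0.938 with the E13.5 and 0.873 with the E12.5 5000+ barcodes. E12.5 low-RNA barcodes had 0.947 with their own stage and 0.906 with E13.5.

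Cell barcodes shared by both libraries numbered 24, and 9 of them were low-RNA in E12.5 (238 to 1107 UMIs) and deep in E13.5 (24101 to 79543 UMIs). A further 3 were low-RNA in E13.5 (249 to 399 UMIs) and deep in E12.5 (21981 to 48097). In the 9 shared E12.5 low-RNA barcodes, 8 of 15 panel UMIs were of genes higher in E13.5 (53.3%, 26.6 to 78.7). In unshared E12.5 low-RNA barcodes they were 18.7%. In the 8 shared ones under 500 UMIs they were 7 of 8 (87.5%, 47.3 to 99.7). In the 3 shared E13.5 low-RNA barcodes they were 3 of 3 (100%, 29.2 to 100). How barcodes came to be shared was not tested. Leaving out shared barcodes gave 21 higher and 16 lower genes at E13.5 and 17 and 14 at E12.5. No low-RNA barcode was 1 base away from a 5000+ barcode of its library, and 10 at E13.5 and 19 at E12.5 were 2 bases away.

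Few genes differed between the sets. At E13.5, 20 of 2664 genes tested were called higher (0.751%) and 17 lower (0.638%), and at E12.5, 18 of 2690 were called higher (0.669%) and 14 lower (0.520%). With the sets scaled by trimmed mean factors the split became 18 higher and 30 lower at E13.5 and 13 higher and 17 lower at E12.5. The level was set on the mean of both sets, which favours genes high in low-RNA barcodes. With 50 CPM required in 5000+ barcodes alone, it was 10 higher and 39 lower at E13.5 and 7 and 28 at E12.5. Within 2-fold lay 98.6% of genes tested at E13.5 and 98.8% at E12.5, and the rank correlation across these genes was 0.913 at E13.5 and 0.929 at E12.5. Of 2398 genes tested in both libraries, 7 were called higher in both (0.292%) and 1 lower in both (0.0417%), and no gene was called in opposite directions. Among the 7, Hsf2, Pfas and Tmsb4x had under 50 CPM in 5000+ barcodes at both stages. These genes were tested only through their low-RNA level. Genes with few UMIs in low-RNA barcodes could not show a smaller difference at this depth.

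Genes called higher at both stages differed in how far they were spread over barcodes, from 5 barcodes at E13.5 for Tmsb4x to 194 for Actb. Cbx3, which encodes the heterochromatin protein HP1 gamma (chr6:51470360-51483704, plus strand), had 155 UMIs in 87 low-RNA barcodes at E13.5, 557 CPM against 155 CPM (3.59, 3.04 to 4.21). At E12.5 it had 178 UMIs in 102 barcodes, 584 CPM against 170 CPM (3.43, 2.94 to 3.98). Pdcd4, an inhibitor of translation initiation (chr19:53892231-53929860, plus strand), had 291 CPM against 114 CPM at E13.5 (2.55, 2.02 to 3.18) and 217 CPM against 62.1 CPM at E12.5 (3.49, 2.69 to 4.45). Hsf2, a heat shock transcription factor (chr10:57486385-57513135, plus strand), had 82.6 CPM against 32.2 CPM at E13.5 (2.56, 1.62 to 3.86) and 102 CPM against 25.3 CPM at E12.5 (4.03, 2.73 to 5.74).

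Actb, cytoskeletal beta-actin (chr5:142903115-142906754, minus strand), was the most abundant of these genes. It had 540 UMIs in 194 low-RNA barcodes at E13.5, 1939 CPM against 957 CPM (2.03, 1.86 to 2.21), and 687 in 212 at E12.5, 2255 CPM against 1025 CPM (2.20, 2.04 to 2.37). Its close relative Actg1, named after its value was seen, had ratios of 1.07 and 1.21. With trimmed mean factors the Actb ratio at E13.5 was 1.90 (1.74 to 2.06), under the fold required for a call. Of 11 actin and thymosin genes tested at each stage, Actb and Tmsb4x were called higher, where 0.751% of all genes tested were called higher at E13.5 and 0.669% at E12.5. Tmsb4x was among the genes proposed earlier from these data and was tested only through its low-RNA level. The count thus describes that choice in part and says nothing of the family. Pfas, an enzyme of purine synthesis (chr11:68985697-69008460, minus strand), had 79.0 CPM against 34.9 CPM at E13.5 (2.26, 1.41 to 3.43) and 91.9 CPM against 44.3 CPM at E12.5 (2.07, 1.38 to 3.0). At E13.5 its ratio was 1.25 (0.502 to 2.58) in low-RNA barcodes under 5% mt- UMIs, 1.25 with equal weight per barcode and 1.86 (0.850 to 3.54) under 2000 UMIs, none of them called. At E12.5 its call was lost in 4 of 13 alternatives of barcodes, scaling or weighting. The seventh gene, the predicted Gm26917, lay outside the naming rule, with ratios of 2.74 and 2.71. It was uneven, with 116 of 314 UMIs in 1 barcode at E13.5 and 84 of 442 at E12.5.

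Mllt4, which encodes the junction protein afadin, was the gene called lower at both stages, with 35.9 CPM against 72.01 CPM at E13.5 (0.499, 0.239 to 0.918) and 36.1 CPM against 89.2 CPM at E12.5 (0.405, 0.202 to 0.725). Its counts in low-RNA barcodes were 10 and 11 UMIs, so its interval is wide. At E13.5 its ratio lay just inside the fold required, and the call was lost in 9 of 13 alternatives, with ratios up to 0.607 (0.244 to 1.25) under 5% mt- UMIs. At E12.5 it was lost in 0 of 13. Genes called at only 1 stage, named after their values were seen, included Upf1, the helicase of nonsense-mediated decay. It had a ratio of 4.32 (2.92 to 6.15) at E13.5 and 1.93 (1.21 to 2.93) at E12.5. Rbm15, which encodes an RNA-binding protein, had 4.12 (2.75 to 5.95) at E12.5, where it was called, and 2.15 (1.11 to 3.76) at E13.5, under the level for a call. The difference between stages was not tested for either gene. Malat1 had 2751 CPM against 1432 CPM at E13.5 (1.92, 1.79 to 2.06), with 151 of its 766 UMIs in the barcode rich in haemoglobin, and 1290 CPM against 936 CPM at E12.5 (1.38, 1.25 to 1.52).

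Depth sets whether a transcript is seen, so barcodes were also thinned to 1000 UMIs, which kept 78 of 279 low-RNA barcodes at E13.5 and 102 of 287 at E12.5. Actb was then detected in 79.5% of low-RNA and 58.2% of 5000+ barcodes at E13.5, and in 80.4% and 60.2% at E12.5. Cbx3 was detected in 39.7% and 13.8% at E13.5 and in 38.2% and 15.3% at E12.5, and Pdcd4 in 25.6% and 11.5%, and 19.6% and 6.24%. Dppa3, by contrast, was detected in 88.5% of low-RNA and 93.1% of 5000+ barcodes at E13.5, and in 74.5% and 83.0% at E12.5. Without thinning, Actb was seen in 99.9% of 5000+ barcodes at E13.5.

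Across ranges of depth the genes called higher at both stages took different courses, and the levels of Cbx3 and Actb were higher in shallower barcodes on both sides of the limit. Cbx3 had 601, 683, 485, 265, 144 and 158 CPM at E13.5 in barcodes from 0, 1000, 2000, 5000, 10000 and 20000 UMIs upward, and 844, 626, 439, 264, 168 and 170 CPM at E12.5. Actb had 2448, 2048, 1570, 1352, 933 and 962 CPM at E13.5, and 2817, 2360, 1932, 1612, 1014 and 1023 CPM at E12.5. Between 5000 and 10000 UMIs, outside the low-RNA set, both genes were above their level in deeper barcodes. Pdcd4 instead had like levels under the limit at E13.5, with 273, 320 and 293 CPM, against 145, 123 and 110 CPM above it, and Hsf2 had 76.5, 85.3 and 85.7 CPM, against 46.0, 31.9 and 32.2 CPM. At E12.5 both fell with depth, as Cbx3 did. Pdcd4 had 286, 199, 191, 131, 72.6 and 59.3 CPM there, and Hsf2 had 221, 85.3, 50.9, 45.9, 26.1 and 24.9 CPM. Pfas at E13.5 had its lowest level, 32.8 CPM from 3 UMIs, under 1000 UMIs. Germ genes stayed between 8194 and 10427 CPM at E13.5 and between 8568 and 9435 CPM at E12.5 in every range. Somatic gonad genes had no such order, with 372, 235, 136, 2432, 326 and 143 CPM at E13.5 and 338, 71.1, 286, 407, 268 and 198 CPM at E12.5. Their highest value lay at 5000 to 10000 UMIs at both stages, in 75 barcodes at E13.5 and 60 at E12.5. The selection itself touches these ranges, since barcodes with 10% or more mt- UMIs are absent from all of them, above the limit as well as under it. Above the limit this left out 25 barcodes at E13.5 and 12 at E12.5, with medians of 8824 and 5852 UMIs.

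**Figure D5:**
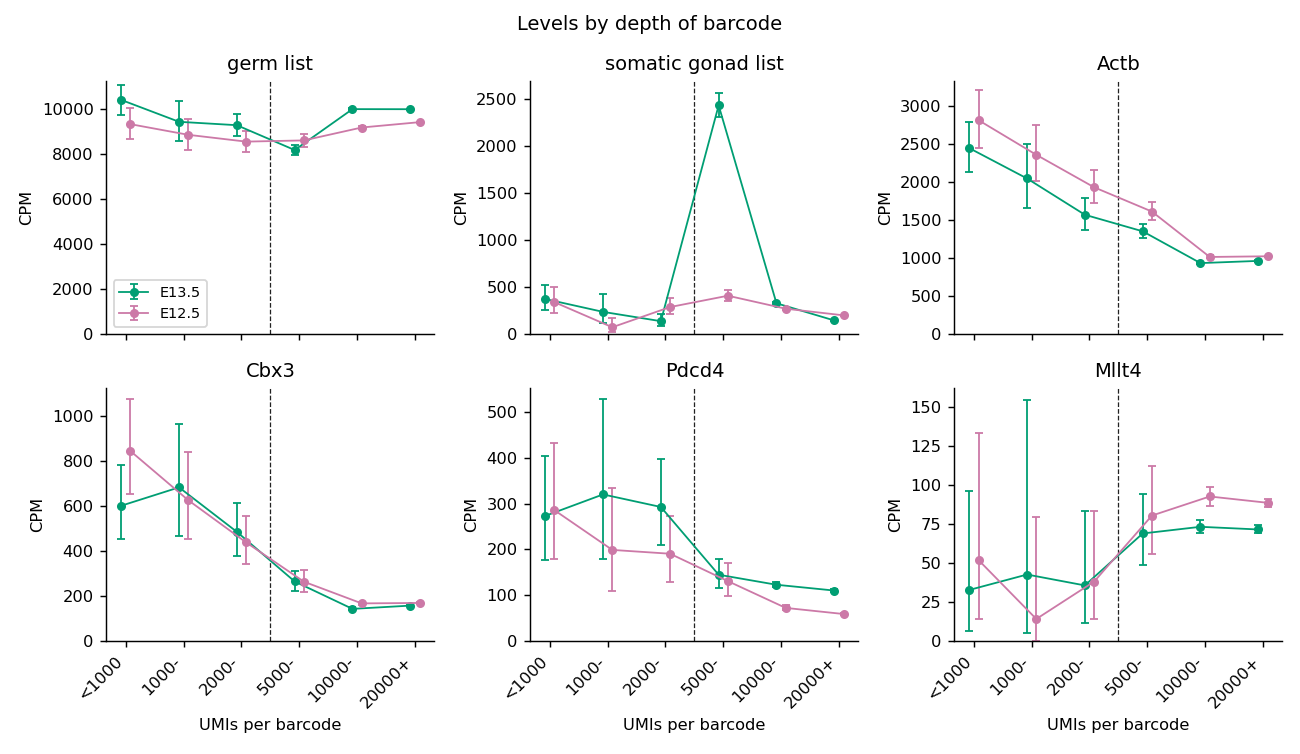
Level in CPM against depth range in UMIs, low to high, for the germ and somatic gonad lists and for Actb, Cbx3, Pdcd4 and Mllt4, with E13.5 and E12.5 as separate lines and a dashed line at 5000 UMIs. Actb and Cbx3 decline across the line at both stages (Cbx3 485 and 265 CPM on its sides at E13.5), the germ list is nearly flat, and the somatic list is highest between 5000 and 10000 UMIs.

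Mitochondrial share divided the low-RNA barcodes further. Under 0.5% mt- UMIs were 78 at E13.5, against 5 of the 5000+ barcodes, and 48 at E12.5, against 2. Leaving out those with Tmsb4x or rich in haemoglobin, 74 remained at E13.5 and 44 at E12.5. These held germ genes at 11676 CPM and 11313 CPM, and Malat1 at 348 CPM and 530 CPM. All low-RNA barcodes, with none left out, held germ genes at 9696 and 8835 CPM and Malat1 at 2751 and 1290 CPM. Because germ-poor barcodes were left out of 1 side only, the higher germ level is partly built in. With them kept, the 78 and 48 held germ genes at 10186 CPM (9288 to 11146.5) and 9841 CPM (8882 to 10874). Malat1 then stood at 3553 CPM at E13.5, above all low-RNA barcodes, but 151 of its 165 UMIs there lay in the barcode rich in haemoglobin. At E12.5 it stood at 460 CPM, below all low-RNA barcodes. Ribosomal protein genes had ratios of low-RNA over 5000+ barcodes of 1.0 at E13.5 and 0.960 at E12.5, and heat shock genes 0.964 and 0.978. Pro-apoptotic genes had 0.842 (0.751 to 0.940) and 1.10 (0.999 to 1.20).

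Clustered by themselves with haemoglobin genes left out, the low-RNA barcodes formed 3 clusters, all left unnamed. Cluster 1 had 407 barcodes, 188 of E13.5 and 219 of E12.5, and a germ level of 9620 CPM. Cluster 2 had 139 barcodes, 78 and 61, led by predicted genes such as Gm26917, with Malat1 at 4181 CPM and germ genes at 8838 CPM. Cluster 3 had 20 barcodes, 13 and 7, led by Tmsb4x, Vim, Igf2, Sat1 and Tagln2. It held 104 of the Tmsb4x UMIs in 9 barcodes, germ genes at 2482 CPM and somatic gonad genes at 3227 CPM, and 12 of its barcodes had no germ UMI. Its leading genes were among those clustered and are a description.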

How the data were processed

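As the authors deposited them, the values are unnormalised UMI counts in 1 table per stage, genes by barcodes; Cell Ranger and the build GRCm38 (mm10) are named per the submitters' processing notes, with no version. In the tables each barcode had at least 201 genes. The gene annotation, the lower limit on barcodes and any removal of doublets are not given in the sources used here, and no doublet caller was run, since low-RNA barcodes are shallow; deep doublets may remain among the 5000+ barcodes.

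Counts were summed over low-RNA barcodes (278459 UMIs at E13.5, 304693 at E12.5) and over 5000+ barcodes (59323506 and 59972850 UMIs) and expressed as CPM. Ratios carry exact conditional binomial 95% intervals, levels exact Poisson and shares exact Clopper-Pearson intervals, all for counting error only. The script was checked on simulated counts. Members and gene lists were chosen with earlier results of these data known. The named genes were the 7 leading genes, all haemoglobin genes, genes called alike in both libraries (predicted genes left out), and the most abundant member and those at the ends of each list. Others are said in the text to be named after their values were seen. Barcodes were clustered with igraph 0.11.9 (1000 variable genes, 15 principal components, 15 neighbours, Leiden resolution 0.5), and trimmed mean factors came from edgeR 4.0.16. Gene positions are from GENCODE on GRCm38. Barcodes under 5000 UMIs with 10% or more mt- UMIs, 106 at E13.5 and 43 at E12.5, entered no comparison. Alternatives were tried for the UMI, mitochondrial and level limits, the scaling and weighting, and the barcodes left out.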

Additional observations from a re-analysis of the deposited data

Results flagged for a closer look

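Signals appeared in barcodes that entered no comparison, those under 5000 UMIs with 10% or more mt- UMIs. At E13.5, 106 such barcodes with a median of 54.9% mt- UMIs held germ genes at 4158 CPM (999 UMIs in 104 barcodes), somatic gonad genes at 208 CPM (50 UMIs in 37) and red cell genes at 142 CPM (34 UMIs in 29). None was rich in haemoglobin. At E12.5, 43 such barcodes with a median of 36.5% mt- UMIs held germ genes at 4599 CPM (487 UMIs in 41 barcodes), somatic gonad genes at 453 CPM (48 UMIs in 18, of which 20 in 1 barcode) and red cell genes at 47.2 CPM (5 UMIs). Their germ level lay under that of low-RNA barcodes, 9696 CPM at E13.5 and 8835 CPM at E12.5. CPM is taken over all UMIs, mt- genes included, so a large mt- share lowers every other level. How far this accounts for the difference was not tested.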

How the results depend on the processing

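No paired analysis was possible because each stage had 1 library, which also leaves no replicate to omit. Settings without shared barcodes, without Tmsb4x barcodes (in low-RNA barcodes alone or in both sets), without haemoglobin-rich barcodes in both sets and at 0.5% mt- UMIs or more were chosen after seeing the data. At E13.5 genes called higher numbered 20 as reported, and 70 under 2000 UMIs, 53 under 5% mt- UMIs, 51 with haemoglobin, mt- and ribosomal protein genes out of the total, 79 with equal weight per barcode, 169 at a mean of 10 CPM, 222 with no minimum level and 10 with the level set in 5000+ barcodes alone. Genes called lower numbered 17, and in the same order 32, 51, 43, 54, 63, 63 and 39, and 30 with trimmed mean factors. At E12.5 genes called higher numbered 18, and 64, 34, 36, 78, 127, 175 and 7 in that order. Genes called lower numbered 14, and 35 without those genes in the total, 37 with equal weight, 60 at 10 CPM, 60 with no minimum and 28 with the level in 5000+ barcodes alone. Under 2000 UMIs 13 of the 20 and 16 of the 18 genes called higher were shared with the reported ones.

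The red cell ratio at E13.5 (10.1) turned to 0.131 under 2000 UMIs, 0.0824 without the haemoglobin-rich low-RNA barcode and 0.0586 at 0.5% mt- UMIs or more, settings that all leave that barcode out. It was 17.6 under 5% mt- UMIs, 5.31 against 5000+ barcodes under 20000 UMIs, 9.48 with trimmed mean factors, 2.06 with equal weight, 11.9 with Tmsb4x barcodes out of both sets and 1.21 with haemoglobin-rich barcodes out of both sets. The somatic gonad ratio at E13.5 (1.08) was 1.53 (1.11 to 2.04) under 2000 UMIs, 0.576 (0.443 to 0.737) against 5000+ barcodes under 20000 UMIs, 0.751 without Tmsb4x barcodes and 0.769 at 0.5% mt- UMIs or more. At E12.5 (1.18) it was 0.906, 0.846 and 0.908 under the last 3, and 0.894 with Tmsb4x barcodes out of both sets. The germ ratio at E13.5 (0.971) was 1.01 under 2000 UMIs, 0.908 with trimmed mean factors and 1.02 with equal weight, and at E12.5 (0.941) 0.877 and 0.981 under the last 2. The Tmsb4x ratio became 0 at both stages without its barcodes, by construction, and 0.353 at E12.5 with 0.5% mt- UMIs or more. At E13.5 (17.8) it was 35.8 under 2000 UMIs, 6.74 against 5000+ barcodes under 20000 UMIs and 6.91 at 0.5% mt- UMIs or more, and at E12.5 (7.49) 2.04 against 5000+ barcodes under 20000 UMIs and 2.88 with equal weight. Calls of Cbx3, Hsf2 and Pdcd4 were lost in 0 of 13 alternatives at each stage. These 13 changed the barcodes, scaling or weighting, and not the level limit. With 50 CPM required in 5000+ barcodes alone, Hsf2 was called at neither stage. Its ratio at E12.5 (4.03) was 6.18 under 2000 UMIs and 7.21 with equal weight. Beyond those named, the cause of these shifts was not tested.

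Thinned to 500 UMIs, Actb was detected in 65.7% of low-RNA and 36.7% of 5000+ barcodes at E13.5 and in 68.0% and 39.3% at E12.5. Cbx3 was detected in 23.1% and 7.75% at E13.5 and in 22.4% and 7.43% at E12.5, and Dppa3 in 70.6% and 76.1%, and 57.8% and 60.7%. Not thinned, 5000+ barcodes showed Actb in 99.9% and 99.96%, Cbx3 in 89.5% and 92.1% and Dppa3 in 99.7% and 99.6% at E13.5 and E12.5, and low-RNA barcodes of E13.5 showed Dppa3 in 78.5%. At resolution 1.0 the low-RNA barcodes formed 10 clusters.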

Other observations

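Other gene groups gave values not described above. Imprinted genes, among them Cdkn1c, Igf2 and H19, summed to a ratio of low-RNA over 5000+ barcodes of 1.24 at E13.5 and 1.30 at E12.5. Cdkn1c, which encodes the cell cycle inhibitor p57, had 143.6 CPM against 79.95 CPM at E13.5 (1.80, 1.28 to 2.45) and 91.9 CPM against 20.5 CPM at E12.5 (4.49, 2.97 to 6.52). Of its 28 UMIs at E12.5, 10 lay in the endothelial-marked barcode of 2125 UMIs and 4 in the barcode of 1610 UMIs with Cldn5 and Eng. Proliferation genes had ratios of 0.918 at E13.5 and 1.02 at E12.5 in summed level. Y-linked genes had 1.15 at E13.5 and 1.20 at E12.5.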
